A study of Mus musculus with 8 samples.

Results

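Adjacent, non-tumour liver of mice that had received a plasmid carrying a mouse APOBEC3 gene was compared with adjacent liver of mice that had received the pT3 vector plasmid. The 4 libraries compared were those whose titles end in N, out of 8 in the series, and the other 4 came from tumours of the same 4 mice. The mA3 group held adjacent liver of mA3 mice 1 and 2, and the vector group held adjacent liver of vector mice 1 and 9. Per the labels, all 4 mice were age-matched males, and liver tumours had been induced with diethylnitrosamine (DEN), a carcinogen. Samples date from 8 months after DEN. The plasmid was pT3 with mouse APOBEC3B (mA3 in the titles) in the first group, and pT3 vector in the second. The labels give no strain, no promoter or route for the plasmid and no injection date, so the cells in which the plasmid was active are not known from them. The tissue label calls the adjacent samples relatively normal, while the source label of the same samples names the carcinoma. The study was titled for an APOBEC3B effect in liver carcinoma, and the comparison asks how the liver around such tumours differs with the plasmid. Nothing in the labels beyond the numbering says that the mice were separate animals, so the count of 4 mice rests on it. The p-values measure the spread between samples within groups, taken over all 8 libraries, tumours included.

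APOBEC3 proteins are cytidine deaminases that turn cytosine into uracil in single-stranded DNA and restrict retroviruses and retroelements. Mice have a single Apobec3 gene, whereas primates carry a cluster of related genes, of which APOBEC3B is one. In the liver most messenger RNA comes from hepatocytes, with smaller parts from Kupffer cells (resident macrophages), endothelial cells, stellate cells and lymphocytes. In such bulk RNA, fewer cells of a type and less RNA per cell cannot be told apart.

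Levels are given as CPM, the usual scaling of read counts by library size, here with TMM factors, and differences as mA3 minus vector on the log2 scale with the standard error of the edgeR fit (n = 2 libraries per group). Total counts were 22076910 in mA3 adjacent 1 and 14311585 in mA3 adjacent 2, against 21967283 in vector adjacent 1 and 12969929 in vector adjacent 9. Of 34745 genes, 15009 were tested. Libraries of a group were not in every case closer to each other than libraries of different groups. The mean absolute log2 difference between 2 libraries was 0.580 within mA3 and 0.812 within vector. It was 0.396 between mA3 adjacent 2 and vector adjacent 1, and 0.523 between mA3 adjacent 1 and vector adjacent 9. The first principal component of the adjacent libraries (62.6% of the variance) placed mA3 adjacent 1 and 2 at -27.4 and 36.8, against 60.1 and -69.5 for vector adjacent 1 and 9. The mA3 libraries thus lay between the vector libraries on the main axis. Vector adjacent 9 stood furthest apart, with 989 genes more than 2-fold from each of the other 3 libraries, against 459 in mA3 adjacent 1, 224 in mA3 adjacent 2 and 581 in vector adjacent 1.

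**Figure D1:**
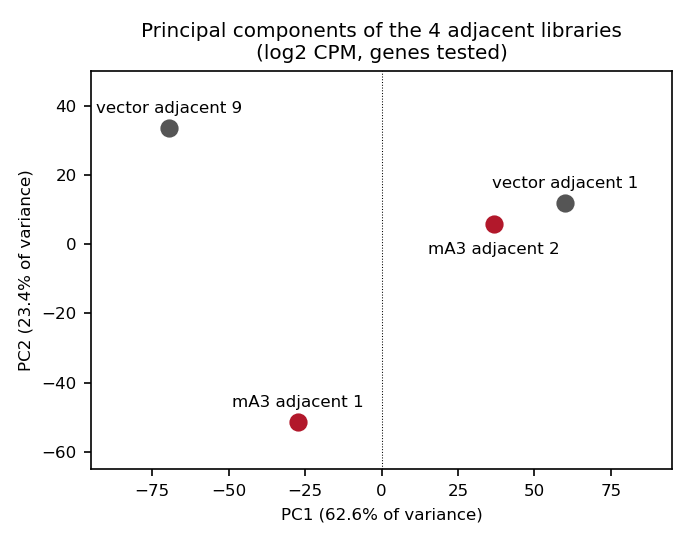
First and second principal components of log2 CPM over the genes tested, 1 point per adjacent library. The mA3 libraries (-27.4 and 36.8 on the first component) fall between vector adjacent 1 at 60.1 and vector adjacent 9 at -69.5.

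Vector mouse 9 also stood apart in genes of the circadian clock, a loop in which Arntl (BMAL1) and its partners drive genes such as Dbp and Per3 that peak at another time of day. Arntl stood at 1.96 and 1.24 CPM in mA3 adjacent 1 and 2, against 1.05 and 29.0 CPM in vector adjacent 1 and 9. Dbp, a transcription factor of clock output, stood at 131 and 107 CPM in mA3 adjacent 1 and 2, against 143 and 2.43 CPM in vector adjacent 1 and 9. Npas2, a partner of BMAL1, stood at 0.392 and 0.0686 CPM in mA3 adjacent 1 and 2, against 0.301 and 7.29 CPM in vector adjacent 1 and 9. The tumour of vector mouse 9 had the same order, with 38.3 CPM of Arntl and 2.54 CPM of Dbp, whereas the other 3 tumours held 0.803 to 4.35 CPM of Arntl and 149 to 207 CPM of Dbp. These clock genes were chosen after their values were seen. Both libraries of that mouse therefore stood apart from the 6 others in clock genes, and the labels give no time of day. The part of clock genes in the differences below was not tested.

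**Figure D2:**
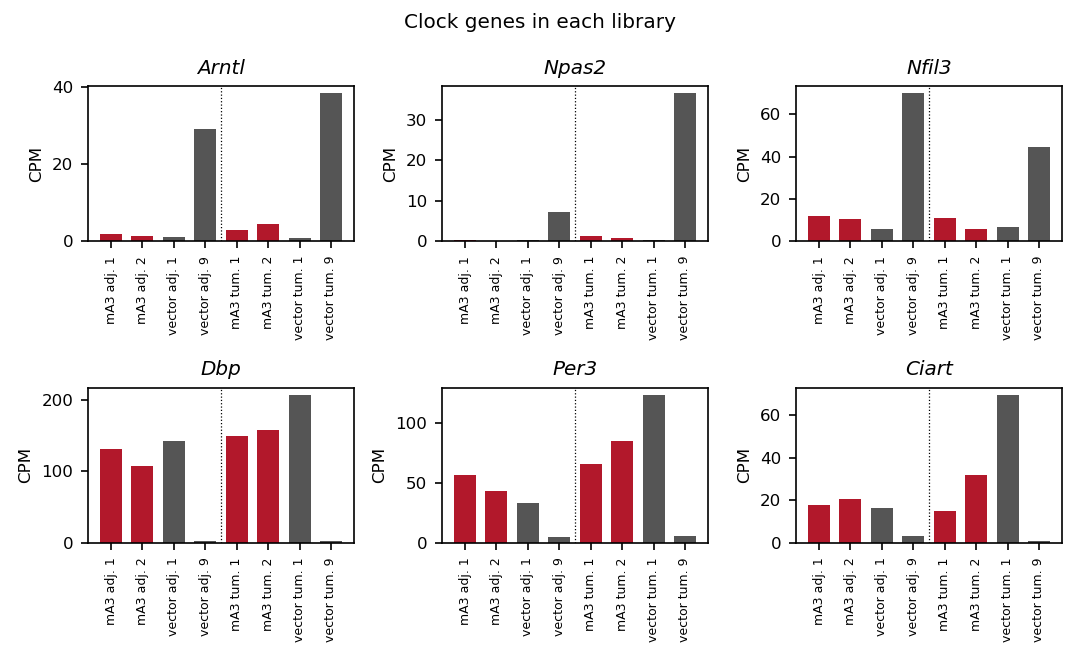
CPM of clock genes in each of the 8 libraries, mA3 before vector and adjacent liver before tumour, 1 panel per gene with its own axis. Arntl is highest and Dbp lowest in the 2 libraries of vector mouse 9 (29.0 and 38.3 CPM of Arntl, 2.43 and 2.54 CPM of Dbp).

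Apobec3 (ENSMUSG00000009585, protein coding), taken here as the gene on the plasmid, had more reads in mA3 than in vector adjacent liver. The endogenous gene lies on the plus strand at chr15:79891659-79915906 in the deposited positions, which match build GRCm38, and gene counts do not separate its transcripts from those of a plasmid. mA3 adjacent 1 had 1032 counts and mA3 adjacent 2 had 511, against 54 in vector adjacent 1 and 127 in vector adjacent 9. Per length, this came to 3.45 and 2.63 FPKM in mA3 adjacent 1 and 2, against 0.181 and 0.722 FPKM in vector adjacent 1 and 9. The groups did not overlap, and the lower mA3 library was above the higher vector library. In CPM the libraries stood at 45.0 and 35.1 (mA3 adjacent 1 and 2) against 2.71 and 9.96 (vector adjacent 1 and 9), a log2 difference of 2.67 ± 0.62. It did not pass over all genes (edgeR adjusted p = 1, unadjusted 0.00242). The size depended on the vector library used, at 2.01 without vector adjacent 1 and 3.88 without vector adjacent 9, and was 2.47 without mA3 adjacent 1 and 2.84 without mA3 adjacent 2. The difference in adjacent liver minus that in tumour was 2.51 ± 0.83 on the log2 scale (edgeR adjusted p = 0.842, unadjusted 0.0167).

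**Figure D3:**
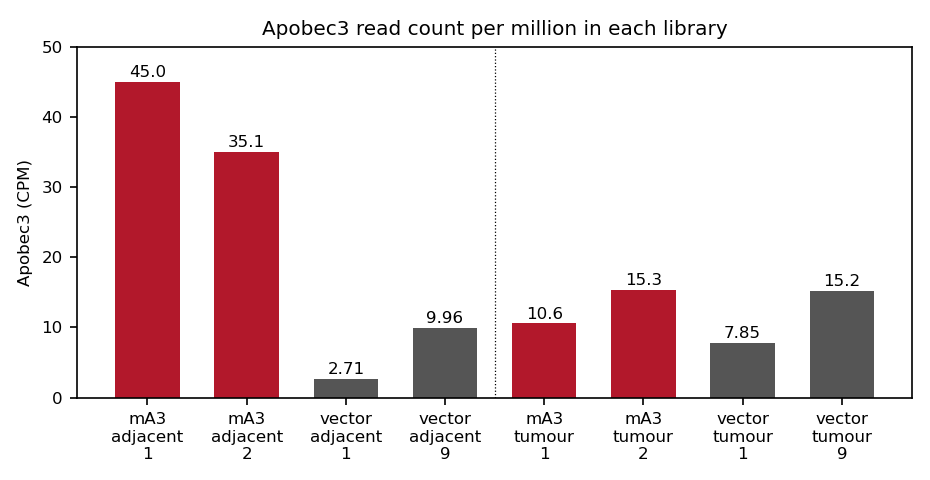
Apobec3 CPM in each of the 8 libraries, 1 bar per library, mA3 left of vector in each tissue. The mA3 adjacent libraries sit at 45.0 and 35.1 CPM and the vector adjacent libraries at 2.71 and 9.96 CPM, while the tumour groups (10.6 and 15.3 CPM in mA3, 7.85 and 15.2 CPM in vector) overlap.

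Across all genes, 0 of 15009 (0%) passed an edgeR adjusted p under 0.05, and the smallest adjusted p was 1. At an unadjusted p under 0.05, 80 genes were higher in mA3 (0.533%) and 75 lower (0.5%). That split was 130 higher and 39 lower under scaling by total counts, and 181 higher and 28 lower in the FPKM fit. The 80 and 75 genes together made 155 (1.03%). This is a smaller share than a threshold of 0.05 gives where no gene differs. DESeq2 passed 0 genes (205 at an unadjusted p under 0.05), limma-voom 0 (134) and limma on log2(FPKM + 0.1) 0 (209). The fit that kept genes of any count called 56 of 23237 genes, 5 higher and 51 lower. Of those 51 genes, 48 stood more than 2-fold higher in vector adjacent 9 than in each other adjacent library. The number at an unadjusted p under 0.05 was 68 without mA3 adjacent 1, 850 without vector adjacent 1 and 391 without vector adjacent 9. It was 90 and 91 without mA3 tumour 1 and 2, and 275 and 274 without vector tumour 1 and 9. As a description, both mA3 libraries were above both vector libraries in 1560 genes (10.4%) and below them in 1486 genes (9.9%). Gene lists are read below against these shares and against the median log2 difference over all genes tested, -0.01. Scaling by total counts alone moved that median by 0.12 and the FPKM fit by 0.13. Each gene named below had an edgeR adjusted p of 1, so "higher" and "lower" describe values that did not pass.

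Other genes that edit DNA or RNA differed less than Apobec3. Of 10 tested deaminases and editing cofactors, 2 had both mA3 libraries above both vector libraries, Apobec3 and Adarb1, an adenosine deaminase acting on RNA (20% of members, against 10.4% of all genes). The transfer RNA deaminase gene Adat2 had both below by a small margin (10% of members, against 9.9% of all genes). It stood at 1.79 and 2.40 CPM in mA3 adjacent 1 and 2, against 2.96 and 2.43 CPM in vector adjacent 1 and 9. Adarb1 stood at 21.0 CPM in each mA3 adjacent library, against 16.0 and 13.6 CPM in vector adjacent 1 and 9 (log2 0.50 ± 0.33). Apobec1, the deaminase that edits apolipoprotein B messenger RNA (chosen after its values were seen), stood at 27.4 and 17.5 CPM in mA3 adjacent 1 and 2, against 13.6 and 24.3 CPM in vector adjacent 1 and 9, so that the groups overlapped. Among 17 tested genes of uracil removal and base excision repair, the pathway that acts on deaminated cytosine, the median log2 difference was 0.03, with 3 members above (17.6%, against 10.4% of all genes) and 0 below. It was -0.10 without mA3 adjacent 1 and 0.15 without mA3 adjacent 2 or without vector adjacent 1. It was 0.12 without vector adjacent 9. The members above were the DNA ligase Lig1, the repair polymerase Polb and the glycosylase Nthl1. Polb stood at 12.2 and 11.5 CPM in mA3 adjacent 1 and 2, against 10.8 and 8.47 CPM in vector adjacent 1 and 9 (log2 0.29 ± 0.31, 0.48 without vector adjacent 1 and 0.12 without vector adjacent 9). Ung, the glycosylase that removes uracil (chosen after its values were seen), overlapped, at 6.01 and 5.29 CPM in mA3 adjacent 1 and 2, against 6.02 and 5.73 CPM in vector adjacent 1 and 9. The medians were 0.03 over 6 genes of cytosine methylation and -0.01 over 13 subunits of PRC2, the complex that methylates histone H3, and its opposing demethylases. The methylation median was -0.40 without mA3 adjacent 1, 0.34 without mA3 adjacent 2, -0.09 without vector adjacent 1 and 0.43 without vector adjacent 9. The PRC2 median was 0.11 under scaling by total counts and ran from -0.21 without mA3 adjacent 1 to 0.07 without vector adjacent 9.

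Interferon-stimulated genes, which cells switch on when interferons signal, were mostly higher in mA3 adjacent liver. Of 31 tested members, 14 had both mA3 libraries above both vector libraries (45.2%, against 10.4% of all genes) and 1 had both below. The median log2 difference of the list was 0.33, with 27 members positive and 4 negative. Summed over the list, levels were 928 and 754 CPM in mA3 adjacent 1 and 2, against 630 and 727 CPM in vector adjacent 1 and 9. Zbp1, a sensor of Z-form nucleic acids (chr2:173206612-173218923), stood at 20.1 and 11.4 CPM in mA3 adjacent 1 and 2, against 5.67 and 7.45 CPM in vector adjacent 1 and 9 (1.27 ± 0.44, and 0.78 without mA3 adjacent 1). Isg15, a ubiquitin-like modifier (chr4:156199424-156200818), stood at 15.8 and 13.8 CPM in mA3 adjacent 1 and 2, against 8.98 and 3.84 CPM in vector adjacent 1 and 9. Its log2 difference was 1.20 ± 0.45, and 0.71 without vector adjacent 9 or 1.94 without vector adjacent 1. Oas3, which makes the second messenger that activates RNase L, stood at 2.79 and 1.99 CPM in mA3 adjacent 1 and 2, against 0.652 and 1.02 CPM in vector adjacent 1 and 9 (1.53 ± 0.57). Each of these 3 genes separated the groups.

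Isg20, an exonuclease that degrades viral RNA, stood at 3.92 and 4.19 CPM in mA3 adjacent 1 and 2, against 2.41 and 1.57 CPM in vector adjacent 1 and 9. Irf7, a transcription factor that amplifies the interferon response, stood at 80.9 and 71.3 CPM in mA3 adjacent 1 and 2, against 41.4 and 47.9 CPM in vector adjacent 1 and 9 (0.77 ± 0.38). In these genes both mA3 libraries were above both vector libraries too. Stat2, a signal transducer of the interferon receptor, stood at 117 and 70.4 CPM in mA3 adjacent 1 and 2, against 51.3 and 159 CPM in vector adjacent 1 and 9. Oas2, a relative of Oas3, stood at 15.4 and 4.05 CPM in mA3 adjacent 1 and 2, against 2.71 and 22.1 CPM in vector adjacent 1 and 9. In both genes the groups overlapped, with vector adjacent 9 highest and vector adjacent 1 lowest. Ifit2 was the member with both mA3 libraries below both vector libraries, by a small margin, at 4.49 and 5.08 CPM in mA3 adjacent 1 and 2, against 5.22 and 5.26 CPM in vector adjacent 1 and 9. These genes were chosen after their values were seen. The list's median was 0.14 without mA3 adjacent 1, 0.55 without mA3 adjacent 2, 0.48 without vector adjacent 1 and 0.60 without vector adjacent 9.

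The promoters of these genes often carry the interferon-stimulated response element, to which interferon-activated STAT and IRF factors bind. The letters GAAANNGAAA were searched on both strands of RefSeq promoters (GRCm38.p6, 250 bases before to 50 after a gene's start). They were in 1131 of 32851 promoters (3.44%). Counted by gene, 1079 of 27025 genes (3.99%) had a match, and so had 13 of the 21 interferon-stimulated genes with a promoter entry (61.9%), out of 31 tested. Isg15 and Oas3 are shown as members that separated the groups, and Apobec3 because its reads did, in capitals where the letters match. The Isg15 window is chr4:156200769-156201068 on the minus strand, with 3 overlapping matches. The Oas3 window is chr5:120777610-120777909 on the minus strand, with 1 match. The Apobec3 window is chr15:79892158-79892457 on the plus strand, with 1 match on the opposite strand, and a second Apobec3 start at chr15:79894773-79895072 had 0 matches. A match describes letters in this window and no binding was measured.
Isg15: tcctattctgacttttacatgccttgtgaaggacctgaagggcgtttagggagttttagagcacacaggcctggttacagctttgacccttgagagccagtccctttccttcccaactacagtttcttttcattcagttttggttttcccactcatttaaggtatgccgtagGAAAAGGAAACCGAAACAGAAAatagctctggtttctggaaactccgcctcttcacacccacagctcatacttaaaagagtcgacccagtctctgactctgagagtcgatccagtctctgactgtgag
Oas3: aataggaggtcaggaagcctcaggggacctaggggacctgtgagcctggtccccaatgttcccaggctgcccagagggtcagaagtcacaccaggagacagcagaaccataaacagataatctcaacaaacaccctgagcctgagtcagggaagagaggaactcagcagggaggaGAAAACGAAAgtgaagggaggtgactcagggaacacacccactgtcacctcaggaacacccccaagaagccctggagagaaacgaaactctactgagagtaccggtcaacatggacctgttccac
Apobec3: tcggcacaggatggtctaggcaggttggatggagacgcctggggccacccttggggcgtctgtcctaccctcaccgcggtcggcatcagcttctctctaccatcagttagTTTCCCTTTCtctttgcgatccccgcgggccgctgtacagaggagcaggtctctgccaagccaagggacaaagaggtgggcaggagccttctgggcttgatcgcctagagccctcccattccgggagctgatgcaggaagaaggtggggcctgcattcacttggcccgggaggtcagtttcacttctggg

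Genes that interferon-gamma induces had the same direction. Of 18 tested rows of interferon-gamma inducible GTPases, proteins that attack the vacuoles of intracellular pathogens, 8 had both mA3 libraries above both vector libraries (44.4%, against 10.4% of all genes). There were 0 below, and the median log2 difference was 0.39. Gbp6 (ENSMUSG00000104713, the more highly counted of 2 identifiers with that symbol) stood at 12.9 and 7.76 CPM in mA3 adjacent 1 and 2, against 5.92 and 5.80 CPM in vector adjacent 1 and 9 (0.82 ± 0.37, and 0.38 without mA3 adjacent 1). Gbp11, annotated as a polymorphic pseudogene, stood at 24.1 and 24.9 CPM in mA3 adjacent 1 and 2, against 6.07 and 13.6 CPM in vector adjacent 1 and 9 (1.32 ± 0.72, 0.85 without vector adjacent 1 and 2.01 without vector adjacent 9). Gbp genes are close copies in 1 cluster, so their reads may be shared. The list's median ran from 0.26 without mA3 adjacent 1 to 0.49 without mA3 adjacent 2.

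MHC class II genes, which present peptides to CD4+ T cells, were higher in mA3 in all 10 members tested, with a median of 0.52. In 5 of them both mA3 libraries were above both vector libraries (50%, against 10.4% of all genes). Ciita, the master regulator of these genes, stood at 2.40 and 1.85 CPM in mA3 adjacent 1 and 2, against 0.803 and 1.10 CPM in vector adjacent 1 and 9 (1.17 ± 0.74). H2-DMb1, which loads the peptides, stood at 4.31 and 4.12 CPM in mA3 adjacent 1 and 2, against 2.41 and 2.59 CPM in vector adjacent 1 and 9 (0.76 ± 0.39). Cd74, the invariant chain, stood at 78.8 and 105 CPM in mA3 adjacent 1 and 2, against 51.2 and 72.6 CPM in vector adjacent 1 and 9 (0.57 ± 0.58, and 0.34 without mA3 adjacent 2 or without vector adjacent 1). The median was 0.28 without mA3 adjacent 2. The MHC class I pathway, by contrast, had 2 of 18 members above and 2 below (11.1% each, against 10.4% and 9.9% of all genes). Its median was 0.07 (0.01 without mA3 adjacent 1, 0.15 without mA3 adjacent 2 and 0.24 without vector adjacent 1).

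Kupffer cell markers were higher beside these genes. Of 14 tested markers, 8 had both mA3 libraries above both vector libraries (57.1%, against 10.4% of all genes) and 0 below. The median was 0.60, and all 14 summed to 707 and 874 CPM in mA3 adjacent 1 and 2, against 471 and 645 CPM in vector adjacent 1 and 9. Cd5l, a protein secreted by macrophages, stood at 129 and 163 CPM in mA3 adjacent 1 and 2, against 59.3 and 77.6 CPM in vector adjacent 1 and 9 (1.09 ± 0.54). Marco, a scavenger receptor, stood at 26.0 and 40.9 CPM in mA3 adjacent 1 and 2, against 2.86 and 23.8 CPM in vector adjacent 1 and 9 (1.33 ± 0.92, 0.49 without vector adjacent 1 and 3.54 without vector adjacent 9). Vsig4, a complement receptor, stood at 32.5 and 43.5 CPM in mA3 adjacent 1 and 2, against 20.1 and 25.4 CPM in vector adjacent 1 and 9 (0.74 ± 0.55). Clec4f, a lectin that marks Kupffer cells in mice (chosen after its values were seen), overlapped, at 135 and 107 CPM in mA3 adjacent 1 and 2, against 54.0 and 138 CPM in vector adjacent 1 and 9. Without vector adjacent 1 the markers' median was 0.18, and without vector adjacent 9 it was 1.12. The part of Kupffer cells in the interferon and MHC class II values was not tested.

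Markers of recruited macrophages were mixed, with 5 of 16 above (31.2%, against 10.4% of all genes) and 2 below (12.5%, against 9.9%). Their median was 0.09. That median was 0.16 without mA3 adjacent 1, 0.36 without mA3 adjacent 2 and 0.52 without vector adjacent 9. Among 18 chemokines, 4 were above (22.2%, against 10.4% of all genes) and 0 below. Their median was 0.46 (0.13 without vector adjacent 1, 0.24 without mA3 adjacent 2, 0.30 without mA3 adjacent 1 and 0.99 without vector adjacent 9). Ccl2, which attracts monocytes, stood at 1.05 and 0.961 CPM in mA3 adjacent 1 and 2, against 0.502 and 0.392 CPM in vector adjacent 1 and 9 (1.14 ± 0.76). B cell genes differed in direction. Ighd, the IgD constant region of naive B cells, stood at 4.49 and 5.90 CPM in mA3 adjacent 1 and 2, against 1.86 and 2.04 CPM in vector adjacent 1 and 9 (1.41 ± 0.56). Ighg1, the IgG1 constant region of switched cells, stood at 0.523 and 1.72 CPM in mA3 adjacent 1 and 2, against 7.27 and 3.22 CPM in vector adjacent 1 and 9 (-2.27 ± 0.93). Of the 20 tested B and plasma cell genes, 7 were above (35%, against 10.4% of all genes) and 2 below (10%, against 9.9%). The median of 0.37 became 0.79 without mA3 adjacent 1, 0.01 without mA3 adjacent 2, 0.76 without vector adjacent 1 and 0.03 without vector adjacent 9. T cell, NK cell and checkpoint genes had 3 of 15 above (20%, against 10.4% of all genes) and 2 below (13.3%, against 9.9%). Of the 15, 11 were positive and 4 negative, with a median of 0.30. It was -0.09 without mA3 adjacent 1, 0.53 without mA3 adjacent 2, -0.07 without vector adjacent 1 and 0.57 without vector adjacent 9. Trbc2 (1.29 ± 0.62) and Cd274 (0.75 ± 0.42) were among those above. Tox, a transcription factor of exhausted T cells, was among those below, at 2.05 and 1.79 CPM in mA3 adjacent 1 and 2, against 4.36 and 5.65 CPM in vector adjacent 1 and 9 (-1.38 ± 0.45).

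Fatty acid oxidation and ketogenesis, by which hepatocytes burn fat and which the nuclear receptor PPAR-alpha controls in large part, was lower in mA3 adjacent liver. Of 36 tested members, 25 had both mA3 libraries below both vector libraries (69.4%, against 9.9% of all genes) and 0 had both above. The median log2 difference was -0.52, and 34 members were negative. It was negative with each adjacent library left out in turn, at -0.47 without mA3 adjacent 1, -0.68 without mA3 adjacent 2, -0.57 without vector adjacent 1 and -0.57 without vector adjacent 9. Without vector adjacent 9, the library with the unlike clock genes, 32 of 36 members were below the remaining vector library (88.9%, against 34.0% of all genes).

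Members of the mitochondrial pathway differed by modest amounts and separated the groups. Acadm, the medium-chain acyl-CoA dehydrogenase, stood at 203 and 303 CPM in mA3 adjacent 1 and 2, against 434 and 425 CPM in vector adjacent 1 and 9. Hadha, a subunit of the trifunctional protein, stood at 212 and 215 CPM in mA3 adjacent 1 and 2, against 355 and 289 CPM in vector adjacent 1 and 9. In both genes the vector libraries lay above both mA3 libraries. The same held for Cpt1a, which commits fatty acids to the mitochondrion, at 212 and 368 CPM in mA3 adjacent 1 and 2, against 525 and 383 CPM in vector adjacent 1 and 9. These 3 genes were chosen after their values were seen.

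The members with the smallest p differed by far more, and all were highest in vector adjacent 9. Cyp4a10, an omega-hydroxylase of fatty acids (chr4:115518264-115533649), stood at 42.8 and 80.8 CPM in mA3 adjacent 1 and 2, against 154 and 2690 CPM in vector adjacent 1 and 9. Its log2 difference was -4.52 ± 1.35, and -1.33 without vector adjacent 9. Cyp4a14, its neighbour in the family, stood at 26.1 and 79.7 CPM in mA3 adjacent 1 and 2, against 119 and 3603 CPM in vector adjacent 1 and 9 (-5.14 ± 1.72, and -1.18 without vector adjacent 9). Acot1, which splits acyl-CoA in the cytosol, stood at 10.8 and 17.0 CPM in mA3 adjacent 1 and 2, against 20.0 and 130 CPM in vector adjacent 1 and 9 (-2.43 ± 0.75, and -0.53 without vector adjacent 9). Acot2, the mitochondrial form, stood at 3.66 and 3.09 CPM in mA3 adjacent 1 and 2, against 5.62 and 26.6 CPM in vector adjacent 1 and 9 (-2.24 ± 0.68, and -0.74 without vector adjacent 9). In each, vector adjacent 1 also stood above both mA3 libraries. Ehhadh, the bifunctional enzyme of peroxisomes (chosen after its values were seen), stood at 156 and 179 CPM in mA3 adjacent 1 and 2, against 277 and 853 CPM in vector adjacent 1 and 9. The Cyp4a genes, and Acot1 with Acot2, are close copies whose reads may be shared, which applies to Cyp4a32 as well, at 19.7 and 13.6 CPM in mA3 adjacent 1 and 2, against 28.5 and 53.3 CPM in vector adjacent 1 and 9 (-1.30 ± 0.39, and -0.78 without vector adjacent 9). Pdk4, which spares glucose when fat is burned (also chosen after its values were seen), overlapped, at 5.84 and 2.06 CPM in mA3 adjacent 1 and 2, against 2.76 and 48.7 CPM in vector adjacent 1 and 9.

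**Figure D4:**
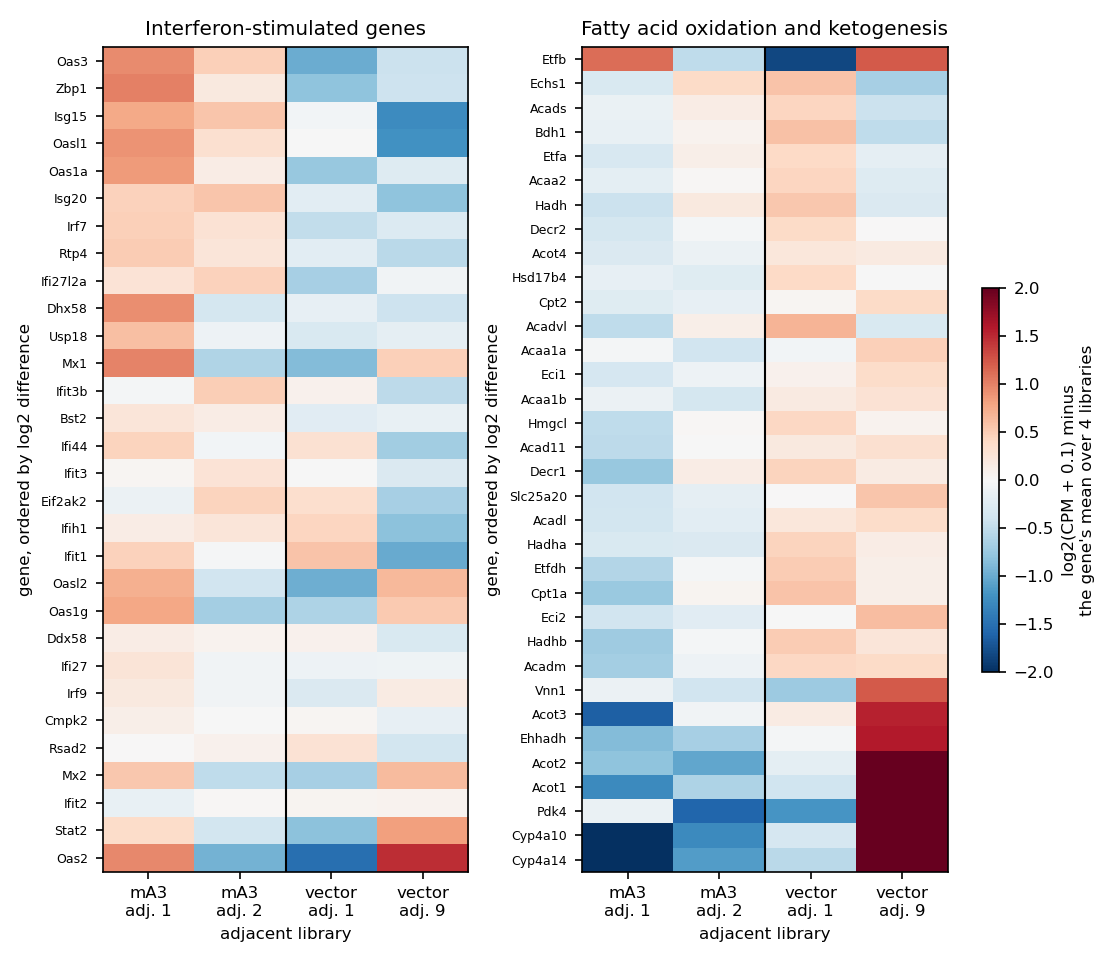
Heat maps of interferon-stimulated genes and of genes of fatty acid oxidation and ketogenesis, with a few members not shown, ordered by log2 difference, with 1 column per adjacent library. Colour is log2(CPM + 0.1) minus the gene's mean over the 4 libraries, clipped at the ends of the scale. Most interferon-stimulated genes are redder in the mA3 columns and most oxidation genes bluer, with Oas2 and Stat2 among the exceptions.

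Genes of lipid storage and release were lower in mA3 too. Of 20 lipid droplet proteins, 8 had both mA3 libraries below both vector libraries (40%, against 9.9% of all genes) and 0 above. Their median was -0.41, and -0.19 without vector adjacent 9. Plin5, which tethers droplets to mitochondria (chr17:56111601-56117596), stood at 22.1 and 27.3 CPM in mA3 adjacent 1 and 2, against 39.6 and 108 CPM in vector adjacent 1 and 9 (-1.58 ± 0.45, and -0.69 without vector adjacent 9). Plin2, the main droplet coat of hepatocytes, stood at 279 and 249 CPM in mA3 adjacent 1 and 2, against 478 and 587 CPM in vector adjacent 1 and 9. Both separated the groups. Plin4 overlapped, at 20.5 and 10.3 CPM in mA3 adjacent 1 and 2, against 11.6 and 305 CPM in vector adjacent 1 and 9. Its log2 difference, the largest of the list, was -3.36 ± 1.25, and 0.40 without vector adjacent 9. Angptl4, a secreted inhibitor of lipoprotein lipase (chr17:33773750-33781575), stood at 64.2 and 75.9 CPM in mA3 adjacent 1 and 2, against 126 and 309 CPM in vector adjacent 1 and 9 (-1.63 ± 0.53, and -0.85 without vector adjacent 9). Retsat, the retinol saturase (chr6:72598475-72608425), stood at 82.0 and 121 CPM in mA3 adjacent 1 and 2, against 199 and 364 CPM in vector adjacent 1 and 9 (-1.48 ± 0.44, and -0.98 without vector adjacent 9).

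The remaining lower genes named by smallest p had other roles. Slc17a8, a vesicular glutamate transporter (chr10:89574020-89621253), had the smallest p among the lower genes and its difference was -1.79 without vector adjacent 9. It stood at 5.18 and 8.31 CPM in mA3 adjacent 1 and 2, against 23.2 and 19.1 CPM in vector adjacent 1 and 9 (-1.65 ± 0.43). Avpr1a, the hepatic vasopressin receptor, stood at 12.9 and 13.6 CPM in mA3 adjacent 1 and 2, against 20.2 and 43.9 CPM in vector adjacent 1 and 9 (-1.27 ± 0.39, and -0.62 without vector adjacent 9). Fmo2, a flavin-containing monooxygenase, stood at 9.02 and 15.8 CPM in mA3 adjacent 1 and 2, against 20.1 and 60.6 CPM in vector adjacent 1 and 9 (-1.70 ± 0.55, and -0.71 without vector adjacent 9). Cebpd, a transcription factor of inflammation and fat cell formation, had the same pattern, at 5.01 and 8.17 CPM in mA3 adjacent 1 and 2, against 10.4 and 30.8 CPM in vector adjacent 1 and 9 (-1.64 ± 0.55, and -0.67 without vector adjacent 9). Spg20, which encodes spartin, differed least of these, at 20.9 and 25.9 CPM in mA3 adjacent 1 and 2, against 37.7 and 42.7 CPM in vector adjacent 1 and 9 (-0.78 ± 0.26, and -0.69 without vector adjacent 9).

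Among the genes higher in mA3, Tsc22d1, a transcriptional regulator induced by TGF-beta (chr14:76414961-76507765), stood at 207 and 113 CPM in mA3 adjacent 1 and 2, against 77.0 and 31.4 CPM in vector adjacent 1 and 9 (1.56 ± 0.51, 1.03 without mA3 adjacent 1, 2.35 without vector adjacent 1 and 1.05 without vector adjacent 9). Sdc3, a heparan sulfate proteoglycan of the cell surface, stood at 54.2 and 63.8 CPM in mA3 adjacent 1 and 2, against 23.6 and 29.3 CPM in vector adjacent 1 and 9 (1.16 ± 0.40). Inf2, a formin that shapes actin, stood at 80.6 and 52.6 CPM in mA3 adjacent 1 and 2, against 38.7 and 30.5 CPM in vector adjacent 1 and 9 (0.94 ± 0.32, and 0.58 without mA3 adjacent 1). Cyp2c70, which makes the muricholic acids of mouse bile, was the most highly counted of the 12, at 981 and 888 CPM in mA3 adjacent 1 and 2, against 590 and 296 CPM in vector adjacent 1 and 9 (1.08 ± 0.41, 1.66 without vector adjacent 1 and 0.66 without vector adjacent 9). Acot11, an acyl-CoA thioesterase outside the Acot1 cluster, was higher while Acot1 and Acot2 were lower, at 6.36 and 9.54 CPM in mA3 adjacent 1 and 2, against 3.51 and 2.82 CPM in vector adjacent 1 and 9 (1.32 ± 0.47). Shank2, a scaffold protein known from synapses, stood at 17.1 and 11.9 CPM in mA3 adjacent 1 and 2, against 8.48 and 3.22 CPM in vector adjacent 1 and 9 (1.30 ± 0.47, 2.18 without vector adjacent 1 and 0.77 without vector adjacent 9). Gimap3, a GTPase of lymphocytes, stood at 7.01 and 7.07 CPM in mA3 adjacent 1 and 2, against 2.41 and 4.39 CPM in vector adjacent 1 and 9 (1.06 ± 0.41, 0.68 without vector adjacent 1 and 1.54 without vector adjacent 9). The antisense gene Rapgef4os3 completed the list, at 12.1 and 5.63 CPM in mA3 adjacent 1 and 2, against 3.36 and 3.61 CPM in vector adjacent 1 and 9 (1.35 ± 0.46, and 0.67 without mA3 adjacent 1). Whether the counting used strand is not given in the sources used here, so its reads and those of the gene it overlaps may not be separated.

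Chaperones were lower in mA3. Of 17 tested heat shock chaperones of the cytosol, 8 had both mA3 libraries below both vector libraries (47.1%, against 9.9% of all genes) and 0 above. Of the 17, 16 were negative, with a median of -0.32 (-0.57 without mA3 adjacent 2). Hspa1b, the inducible HSP70, stood at 5.66 and 8.44 CPM in mA3 adjacent 1 and 2, against 14.6 and 32.7 CPM in vector adjacent 1 and 9 (-1.75 ± 0.76, and -1.06 without vector adjacent 9). It shares sequence with its near copy Hspa1a. Hsph1, a co-chaperone of HSP70, stood at 22.6 and 43.0 CPM in mA3 adjacent 1 and 2, against 54.7 and 75.7 CPM in vector adjacent 1 and 9 (-0.99 on the log2 scale, -0.62 without mA3 adjacent 1 and -1.53 without mA3 adjacent 2). Both separated the groups. Of 21 chaperones and degradation genes of the endoplasmic reticulum, 7 were below (33.3%, against 9.9% of all genes) and 2 above (9.52%, against 10.4%). The median of -0.48 came to -0.02 without vector adjacent 1. Creld2, which helps proteins fold there, stood at 22.9 and 28.9 CPM in mA3 adjacent 1 and 2, against 52.1 and 73.6 CPM in vector adjacent 1 and 9. Hspa5, the main chaperone of that compartment, stood at 462 and 577 CPM in mA3 adjacent 1 and 2, against 941 and 777 CPM in vector adjacent 1 and 9.

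In several groups the median moved far, and in some it changed sign, when 1 library was left out. The acute-phase proteins, which the liver secretes in inflammation, had a median of -0.55, of -1.01 without vector adjacent 1 and of 0.17 without vector adjacent 9. Their member Mt2, a metallothionein, stood at 3.27 and 4.81 CPM in mA3 adjacent 1 and 2, against 4.87 and 143 CPM in vector adjacent 1 and 9. The female-biased liver genes had a median of -1.58, of -1.0 without mA3 adjacent 1 and of 0.04 without vector adjacent 9. The 24 genes of cholesterol synthesis and uptake had a median of -0.41, of 1.66 without vector adjacent 1 and of -1.21 without vector adjacent 9, with 0 members above or below. It was 0.21 in the FPKM fit. Both mA3 libraries were below vector adjacent 1 in all 24 members and above vector adjacent 9 in 23, as in Idi1, an enzyme of that pathway chosen after its values were seen, at 44.5 and 126 CPM in mA3 adjacent 1 and 2, against 346 and 8.55 CPM in vector adjacent 1 and 9. The median of de novo lipogenesis was -0.12, which became 0.04 without mA3 adjacent 1, -0.44 without mA3 adjacent 2, 1.28 without vector adjacent 1 and -0.86 without vector adjacent 9, and 0.37 in the FPKM fit. The male-biased genes (median 0.51) and the major urinary proteins (0.56), which growth hormone controls in male liver, came to 0.20 and 0.14 without mA3 adjacent 1. Without mA3 adjacent 2 the male-biased median was 0.85, and without vector adjacent 9 that of the major urinary proteins was 0.96 (0.37 without vector adjacent 1). The 40 genes of replication and mitosis had a median of 0.37, of -0.23 without mA3 adjacent 1, of 0.80 without mA3 adjacent 2 and of 0.70 without vector adjacent 9. The nuclear respiratory chain (55 genes, median 0.00) and the cytosolic ribosomal proteins (47 genes, median 0.03) had no member that separated the groups. Of all genes, 10.4% were above and 9.9% below. Leaving out 1 library moved the medians of both lists. The respiratory list came to 0.21 without mA3 adjacent 1 and -0.26 without mA3 adjacent 2, and the ribosomal list to 0.34 and -0.41.

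**Figure D5:**
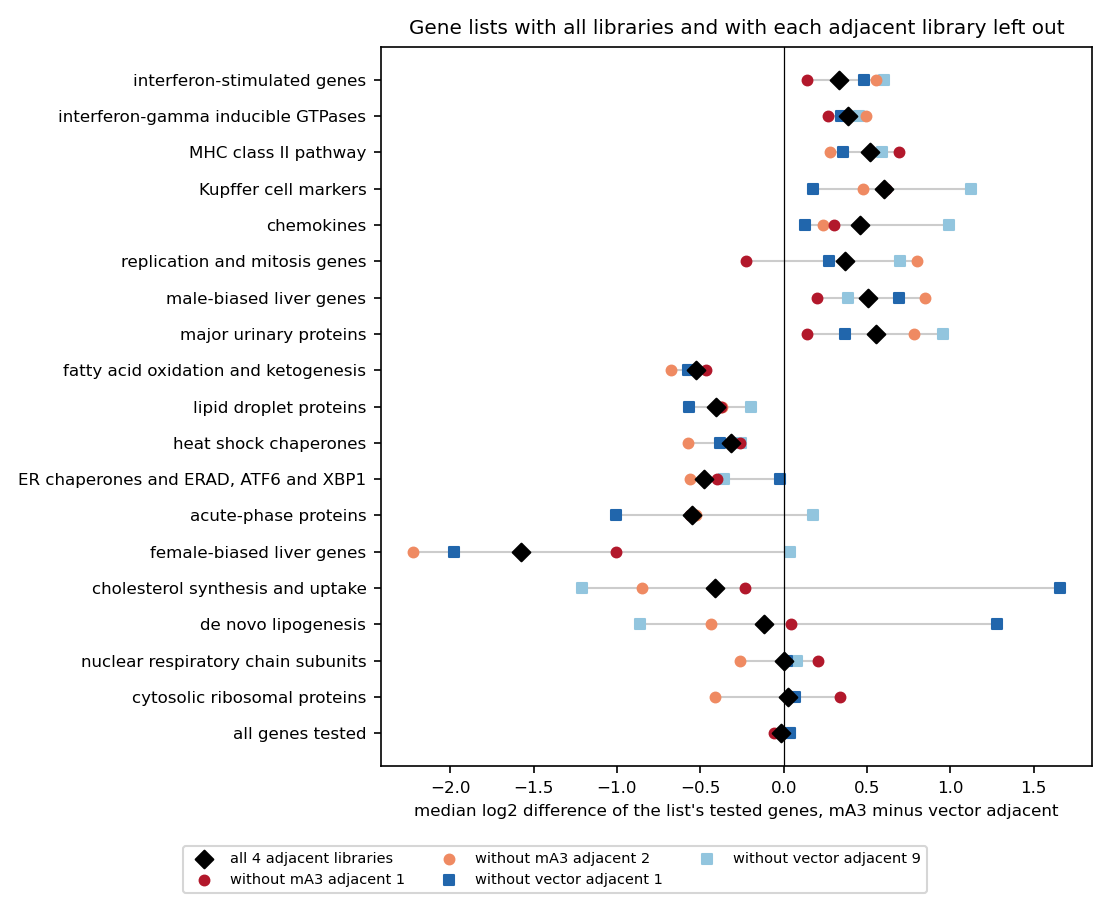
Median log2 difference (mA3 minus vector adjacent) of the tested genes of 18 lists and of all genes tested, as diamonds for all 4 adjacent libraries and as circles or squares with 1 library left out. Fatty acid oxidation keeps between -0.68 and -0.47 whichever library is left out, while cholesterol synthesis runs from -1.21 to 1.66.

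The labelled tissue was checked against markers. The 47 tested genes of plasma proteins that hepatocytes secrete summed to 136513 and 135000 CPM in mA3 adjacent 1 and 2, against 206316 and 129497 CPM in vector adjacent 1 and 9. The sum was 347073 and 323695 CPM in mA3 tumours 1 and 2, and 183209 and 326478 CPM in vector tumours 1 and 9. All tumours but vector tumour 1 were thus above every adjacent library, so this sum did not mark adjacent liver. The list's median log2 difference between the plasmids in adjacent liver was -0.18. Leaving out vector adjacent 1 gave 0.07, and leaving out vector adjacent 9 gave -0.41. Of 30 fetal and tumour markers tested, 13 had every adjacent library below every tumour library, and 1 had every adjacent library above. The same shares over all genes were not counted, so these counts are descriptions only. The sum of the list did not separate the tissues, at 1452 and 1589 CPM in mA3 adjacent 1 and 2 and 2035 and 1874 CPM in vector adjacent 1 and 9, against 2179 and 2050 CPM in mA3 tumours 1 and 2 and 1228 and 1391 CPM in vector tumours 1 and 9. Most of that sum in adjacent liver came from Aldh1a1, a retinaldehyde dehydrogenase, at 1204 and 1386 CPM in mA3 adjacent 1 and 2 and 1827 and 1572 CPM in vector adjacent 1 and 9. Gpc3, a proteoglycan used to diagnose hepatocellular carcinoma, stood at 1.35 and 1.03 CPM in mA3 adjacent 1 and 2 and at 2.81 and 3.29 CPM in vector adjacent 1 and 9, against 127 and 794 CPM in mA3 tumours 1 and 2 and 9.11 and 242 CPM in vector tumours 1 and 9. Afp, the fetal serum protein, stood at 9.98 and 5.56 CPM in mA3 adjacent 1 and 2 and at 5.72 and 5.88 CPM in vector adjacent 1 and 9, against 102 and 184 CPM in mA3 tumours 1 and 2 and 19.7 and 46.8 CPM in vector tumours 1 and 9. In both markers every adjacent library was below every tumour library. H19, a fetal non-coding RNA, stood at 9.50 and 7.41 CPM in mA3 adjacent 1 and 2 and at 1.35 and 4.31 CPM in vector adjacent 1 and 9, against 10.3 and 14.0 CPM in mA3 tumours 1 and 2 and 2.01 and 5.91 CPM in vector tumours 1 and 9. It did not separate the tissues, since the mA3 adjacent libraries were above both vector tumours. Aldh1a1, Gpc3 and Afp were chosen after their values were seen. Genes of the exocrine pancreas, which can be carried over in dissection, were nearly absent, with 3 of 19 passing the filter on low counts.

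Whether the plasmid difference in adjacent liver itself differed from that in tumour was tested as an interaction, and 0 of 15009 genes passed (0%; 749 at an unadjusted p under 0.05, smallest edgeR adjusted p = 0.842). Vector tumour 1 stood apart from the other tumours, with major urinary proteins at a summed 41903 CPM, against 3272 to 6997 CPM in the other 3, and pericentral genes at 12425 CPM, against 2005 to 2786 CPM. The values of tumours and of the interaction rest on it as 1 of 2 vector tumours, and its part in them was not tested. Plin5 stood at 3.44 and 4.56 CPM in mA3 tumours 1 and 2, against 30.2 and 30.0 CPM in vector tumours 1 and 9, the same order as in adjacent liver. Slc17a8 stood at 0.787 and 1.20 CPM in mA3 tumours 1 and 2, against 13.4 and 7.35 CPM in vector tumours 1 and 9. Acot2 had the opposite order. This gene, lower in mA3 adjacent liver, stood at 8.66 and 9.99 CPM in mA3 tumours 1 and 2, against 4.47 and 8.29 CPM in vector tumours 1 and 9. Gbp11, higher in mA3 adjacent liver, stood at 5.17 and 6.92 CPM in mA3 tumours 1 and 2, against 29.4 and 5.30 CPM in vector tumours 1 and 9, which overlapped.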

How the data were processed

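Per the labels' protocols, frozen tissue, described as tumour tissue only, gave Trizol-extracted RNA that was sequenced from Illumina libraries. The authors deposited, per the file headers, a whole-number read count and an FPKM value for each gene and library. No aligner, counter, strand setting or annotation release is named, and these are taken as not given in the sources used here. The submitters' processing notes name build mm8 and Agilent Feature Extraction 10.7, while the deposited positions match GRCm38, with 34267 of 34745 identifiers found on the same chromosome in GENCODE vM21.

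The deposited counts of all 8 libraries (12969929 to 22882531 per library) were fitted with edgeR 4.0.16 under R 4.3.3 by quasi-likelihood, with TMM factors, 1 coefficient per group and genes kept by filterByExpr. That left 4 residual degrees of freedom, and the biological coefficient of variation was 39.1%. Benjamini-Hochberg adjustment covered the 15009 genes tested, with a threshold of 0.05. The procedure was checked on simulated counts, for whether the log2 differences put in were recovered. The share of such genes that it called is not reported here. Alternatives used other scalings and filters, DESeq2 1.42.0, limma 3.58.1 (voom, and log2 of FPKM + 0.1), the adjacent libraries alone and each library left out. Non-overlap in deposited FPKM and the lists without each adjacent library were added after seeing the data. Figures were drawn with matplotlib 3.10.9 under Python 3.11.15. Promoters came from RefSeq (GRCm38.p6).

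The mouse number pairs tumour with adjacent liver, and their deviations from group means correlated across genes at 0.175 in mA3 mice and 0.107 in vector mice. The plasmids share no mouse. The libraries compared and the gene lists were chosen with earlier results of these data known, so list values are descriptions. Besides Apobec3, the 12 genes per direction with the smallest p were named, given a mean of at least 5 CPM and groups that did not overlap, leaving out predicted genes and pseudogenes. Each list described gave up to 4 named genes, again by smallest p. Results for a few genes are not reported here.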

Additional observations from a re-analysis of the deposited data

How the results depend on the processing

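No gene passed in any alternative except the fit that kept genes of any count, which called 56 genes and had 517 at an unadjusted p under 0.05. Of those 56, 55 were among the genes tested above and 36 of the 55 had groups that overlapped, and prior degrees of freedom were 4.09 with the filter and infinite without it. In that fit Apobec3 (adjusted p = 1.35e-06), Cyp4a10 (9e-11), Acot1 (1.87e-05), Acot2 (0.00444) and Fmo2 (0.0272) passed, with adjusted p up to 1 in the other fits, and the cause was not tested. With each of the 8 libraries left out, genes at an unadjusted p under 0.05 ran from 68 to 850. The 24 genes named by p, Apobec3 among them, kept their direction in every alternative. They were named only where the groups did not overlap, so leaving out a library could hardly reverse them. Their kept direction is therefore no test of them. Of the list medians under the alternatives, 826 moved by less than the spread and 75 by more. That spread was the standard deviation of a list's median level between libraries of the same adjacent group. It was wide where those libraries disagreed, so a move within it need not be small. With the mouse as a replicate block the interaction passed 0 genes and had 678 at an unadjusted p under 0.05, against 749 without the block, and limma-voom with the mouse as a random replicate block had 137. The pairing through the mouse changed no call. Depth limits the genes of a few CPM, and 2 libraries per group limit every comparison.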

Other observations

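Some of the genes with the largest weight on the first principal component of the adjacent libraries are given as values. Among the adjacent libraries, a difference between mice cannot be told apart from a difference between libraries. Igfbp1, a liver protein that binds insulin-like growth factors, stood at 20.3 and 12.1 CPM in mA3 adjacent 1 and 2, against 6.97 and 341 CPM in vector adjacent 1 and 9. Cdkn1a, the cell cycle inhibitor p21, stood at 3.62 and 2.20 CPM in mA3 adjacent 1 and 2, against 1.55 and 54.4 CPM in vector adjacent 1 and 9. Plin4, a coat of lipid droplets, stood at 20.5 and 10.3 CPM in mA3 adjacent 1 and 2, against 11.6 and 305 CPM in vector adjacent 1 and 9. In these genes vector adjacent 9 alone was high among the adjacent libraries. In Igfbp1 vector tumour 9 was also highest, but it was not alone in being high. Levels were 2449 and 2718 CPM in mA3 tumours 1 and 2, against 46.7 and 3352 CPM in vector tumours 1 and 9. In Cdkn1a vector tumour 9 was again highest, at 96.9 CPM, but mA3 tumours 1 and 2 held 33.4 and 44.0 CPM. Plin4 stood at 0.689 and 2.53 CPM in mA3 tumours 1 and 2, against 48.4 and 31.7 CPM in vector tumours 1 and 9. At the other end of the axis, Scd1, the stearoyl-CoA desaturase, stood at 2508 and 5196 CPM in mA3 adjacent 1 and 2, against 10921 and 568 CPM in vector adjacent 1 and 9. Thrsp, a lipogenic nuclear protein, stood at 384 and 671 CPM in mA3 adjacent 1 and 2, against 621 and 23.5 CPM in vector adjacent 1 and 9. The mA3 libraries lay between the vector libraries in Scd1, and mA3 adjacent 2 was above both in Thrsp.

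Bile acid genes were mixed. Of 21 tested, 5 had both mA3 libraries below both vector libraries (23.8%, against 9.9% of all genes) and 0 above. The median log2 difference was -0.09, and 0.03 under scaling by total counts. It was -0.22 without mA3 adjacent 1, -0.29 without mA3 adjacent 2, 0.18 without vector adjacent 1 and -0.38 without vector adjacent 9. Cyp8b1, the enzyme that directs synthesis to cholic acid, stood at 100 and 57.0 CPM in mA3 adjacent 1 and 2, against 210 and 559 CPM in vector adjacent 1 and 9. Abcb4, which exports phospholipid into bile, stood at 215 and 156 CPM in mA3 adjacent 1 and 2, against 277 and 398 CPM in vector adjacent 1 and 9. Both separated the groups and did not pass (edgeR adjusted p = 1).

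The long non-coding RNA Neat1, chosen after its values were seen, stood at 578 and 117 CPM in mA3 adjacent 1 and 2, against 56.5 and 699 CPM in vector adjacent 1 and 9.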
